A study of Mus musculus with 24 samples.

Results

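Olfactory sensory neurons that express the mature-neuron protein OMP and lie on the side of a removed olfactory bulb were compared with normal cells of the Neurog1 lineage, the precursors and young neurons that replace them. The lesioned cells, OMP-OBX, were sorted from olfactory mucosa ipsilateral to a unilateral removal of the bulb, 3 weeks after surgery, from heterozygotes of the cross ∆OMP-GFP x CD-1. The normal cells, Neurog1-Ctrl, were sorted from unoperated (normal transgenic) heterozygotes of the cross Neurog1-GFP x FVB/NJ. Each group had 3 Illumina bead arrays of the 24 in the series, and all 11870 genes measured in the mucosa were compared. A pair of further groups served to place the values: OMP, the unoperated counterpart of OMP-OBX, and Neurog1-OBX, the operated counterpart of Neurog1-Ctrl, each with 3 arrays. All 4 groups were 8 to 12 weeks old and were gated as GFP(+), PI(–) and low in forward and side scatter, so both sorts rest on GFP rather than on the protein itself. In the ∆OMP-GFP line GFP is made from the Omp locus, whose second allele remains, while in the Neurog1-GFP line it is driven by Neurog1 regulatory sequence. Per the series design each replicate pooled 2 to 7 mice, so the p-values below measure the spread between such pools.

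The olfactory epithelium renews its sensory neurons throughout life. Globose basal cells divide, pass through a Neurog1- and Neurod1-expressing precursor stage and give young neurons that carry Gap43 and extend an axon, which then switch to the transduction machinery of the cilia and to OMP. Removal of the bulb takes away the axon's target, after which older neurons die and the epithelium holds many short-lived neurons that cannot connect.

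The labels were checked first on the genes that name the sorts. The Neurog1 probe, for the transcription factor that specifies the precursors, read 5.06, 4.91 and 5.11 log2 intensity on the OMP-OBX arrays, below the detection limit on each, against 7.10, 6.29 and 6.25 on the Neurog1-Ctrl arrays. All 3 Neurog1-Ctrl arrays were above all OMP-OBX arrays, and Neurog1 was at least 1.76-fold lower in OMP-OBX (adjusted p = 0.000192, limma). The brighter Omp probe lay near the top of the scale in both sorts, at 15.26, 15.11 and 15.14 in OMP-OBX and at 15.05, 15.34 and 15.18 in Neurog1-Ctrl, a difference of -0.02 ± 0.18 (SE). A second, dimmer Omp probe read 9.43, 9.41 and 9.36 in OMP-OBX and 10.70, 9.76 and 10.61 in Neurog1-Ctrl. The second probe thus separated the groups, with Neurog1-Ctrl the higher, whereas the first lay too near its ceiling to show a difference. The 2 lines also differ at the Omp locus itself, since GFP is made from an Omp allele only in the ∆OMP-GFP line. The part of that genotype in the Omp values was not tested. The relative Omp level of the 2 sorts is not settled by these arrays. Both probes were detected on every Neurog1-Ctrl array, so that sort cannot be taken as precursors alone. It is described here, by its lineage, as precursors together with young neurons, and called the precursors for short. Whether it also held more mature neurons was not tested. In such bulk samples fewer cells of a type and less RNA per cell cannot be told apart.

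Between 36.7% and 38.6% of probes were detected on the OMP-OBX arrays and between 34.9% and 36.8% on the Neurog1-Ctrl arrays, and replicates correlated at 0.984 to 0.986 and at 0.988 to 0.991. A gene was called when its adjusted p in limma was under 0.05. By that rule 3132 genes, 26.4% of those tested, differed between OMP-OBX and Neurog1-Ctrl, with 1504 (12.7%) higher and 1628 (13.7%) lower in OMP-OBX. A further 6467 genes, 54.5%, had a 95% interval of the difference inside 2-fold in either direction. For scale, OMP-OBX differed from OMP in 1029 genes (8.67%), of which 503 (4.24%) were higher and 526 (4.43%) lower, falling to 658 without OMP replicate 1 and to 661 without OMP-OBX replicate 1. Neurog1-OBX differed from Neurog1-Ctrl in 47 genes (0.396%), 23 higher (0.194%) and 24 lower (0.202%), with 8 to 28 when any 1 of those arrays was left out. Of the 3132 calls 48.0% were on the higher side, against 23.0% under median scaling, which moved the median of all genes by -0.25, and 59.0% under cyclic loess; the higher share of calls against OMP was 48.9%, or 22.9% under median scaling. The negative-control probes spread by 10 to 11 units on the OMP-OBX arrays and by 17.3 to 20.8 on the Neurog1-Ctrl arrays. Lesion, mouse line, sort and this array noise differ together between the 2 groups and cannot be told apart. With a term for noise class, estimated through the other groups, 1397 genes were called. All OMP-OBX arrays were in 1 noise class and all Neurog1-Ctrl arrays in another, so the term costs precision. A call lost with it does not by itself show an effect of noise.

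Among growth cone genes of young neurons, Gap43 was raised above OMP cells after the lesion and did not differ detectably from normal precursors. Stmn3, Stmn1 and Dclk1 were also uncalled against those precursors. Gap43, a membrane phosphoprotein of growth cones and the standard marker of immature olfactory neurons, read 13.18, 12.58 and 12.74 in OMP-OBX and 12.84, 12.90 and 12.92 in Neurog1-Ctrl. The groups overlapped, and the difference was -0.06 ± 0.40 (SE; 95% interval -0.90 to 0.78; adjusted p = 0.935). Against the 8.5, 10.34 and 9.5 of OMP cells, the same OMP-OBX arrays were higher by 3.38 ± 0.40 (adjusted p = 2.73e-05), with no overlap. Stmn3, a tubulin-binding stathmin of growing neurites, read 12.25, 11.99 and 12.16 in OMP-OBX and 12.45, 12.54 and 12.26 in Neurog1-Ctrl, an uncalled difference of -0.28 (95% interval -1.08 to 0.51). The Stmn3 arrays of these 2 groups did not overlap, though the closest, 12.25 and 12.26, nearly met. The difference of Stmn3 from OMP was 1.17 and uncalled (adjusted p = 0.0619). Stmn1, another stathmin, stood at 11.20, 10.88 and 11.06 in OMP-OBX against 11.48, 11.46 and 11.12 in Neurog1-Ctrl (difference -0.31 ± 0.49), and was 3.37 above OMP (adjusted p = 0.000167). Dclk1, a microtubule-associated kinase of young neurons, differed by -0.16 from Neurog1-Ctrl and rose by 1.56 against OMP (adjusted p = 0.000542). Stmn1 and Dclk1 fall outside the rule by which genes are named here and were chosen after their values were seen, so they are given as a description only.

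**Figure D1:**
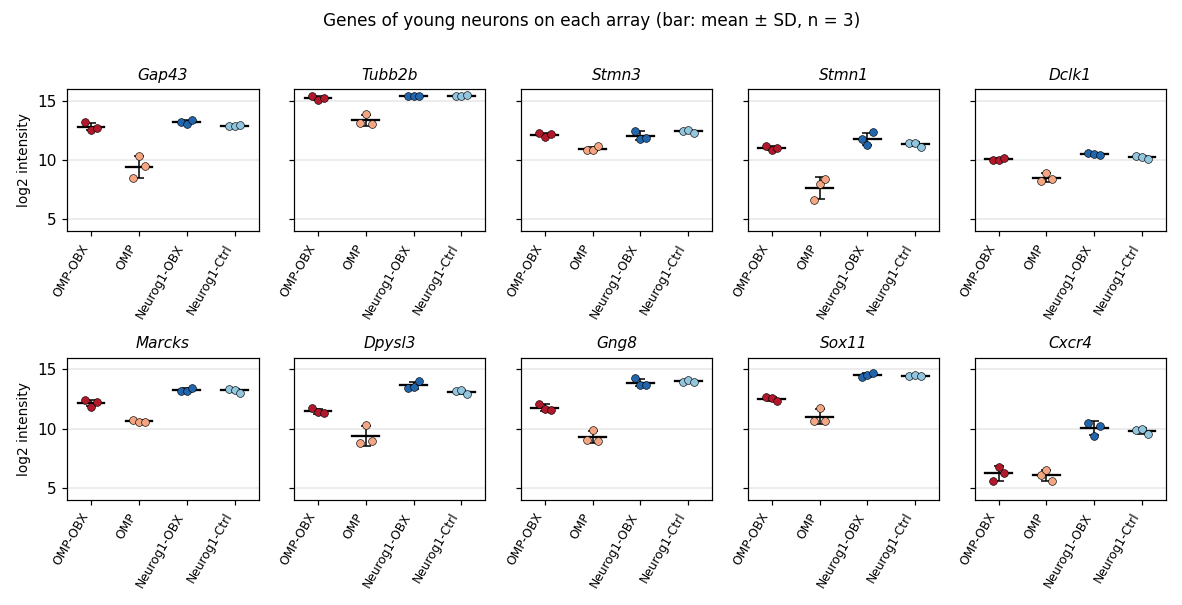
Log2 intensity of genes of young neurons and precursors on each array, with OMP-OBX left of OMP and Neurog1-OBX left of Neurog1-Ctrl; points are arrays, the bar is the mean and the whiskers the SD (n = 3). Gap43 in OMP-OBX (12.58 to 13.18) lies at the Neurog1-Ctrl level, whereas Cxcr4 (5.61 to 6.81) lies at the OMP level, well below the 9.56 to 10 of Neurog1-Ctrl.

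Other genes of the list were lower than in the precursors. Of 28 genes listed for the growth cone and cytoskeleton of young neurons 27 were measured: none was called higher in OMP-OBX, 12 (44.4%) were called lower, 15 were uncalled, and 7 of the 27 had an interval inside 2-fold. Their median difference was -0.77, beside -0.01 over all genes tested. With the noise class term 7 were called lower. Against OMP cells, 9 of the 27 were higher in OMP-OBX and none lower, with a median of 0.87. Over all genes tested 4.24% were higher and 4.43% lower against OMP.

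Of the measured growth cone and cytoskeleton genes of young neurons, the one furthest below the precursors was Cxcr4, the receptor for the chemokine CXCL12 and a mark of precursors on the way to becoming neurons. It read 5.61, 6.81 and 6.29 in OMP-OBX and 9.91, 10 and 9.56 in Neurog1-Ctrl, 12-fold lower (log2 difference -3.59 ± 0.37, adjusted p = 1.84e-06). No OMP-OBX array came near the Neurog1-Ctrl arrays, and the difference of OMP-OBX from OMP was 0.15 (adjusted p = 0.873).

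Several genes were above OMP and still below the precursors. Gng8, the G-protein gamma subunit of immature olfactory neurons, read 12.12, 11.68 and 11.55 in OMP-OBX against 13.95, 14.11 and 13.97 in Neurog1-Ctrl. In OMP-OBX it fell by 2.23 ± 0.41 (adjusted p = 0.000563), and it was 2.49 above OMP (adjusted p = 0.000496). Marcks, an actin-binding substrate of protein kinase C, read 12.40, 11.87 and 12.24 in OMP-OBX against 13.34, 13.31 and 13.05 in Neurog1-Ctrl, with no overlap. Its difference was -1.06 ± 0.19 (adjusted p = 0.000553), and it was 1.55 above OMP (adjusted p = 4.91e-05). The related Marcksl1 fell by 1.15 against Neurog1-Ctrl and was 2.12 above OMP. Dpysl3, a collapsin response mediator that relays semaphorin signals to the cytoskeleton, fell by 1.65 and was 2.09 above OMP. In each of these 4 genes the OMP-OBX arrays lay between the 2 unlesioned sorts without overlapping either, and the Dpysl3 call against Neurog1-Ctrl was lost with the noise class term.

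Other members were lower than in the precursors and uncalled against OMP. Dpysl5, a further collapsin response mediator, fell by 1.57, and the actin-binding drebrin gene Dbn1 fell by 1.39, a call lost with the noise class term. Basp1, a growth cone membrane protein, was undetected on all OMP-OBX arrays and at least 1.91-fold lower. Hdac2, a histone deacetylase listed for its presence in young olfactory neurons, fell by 1.19 on its brightest probe and differed by -0.01 on its other probe, so that the mean of its probes was uncalled. Uncalled members with intervals inside 2-fold included the microtubule protein Map1b (-0.22 ± 0.20) and the collapsin response mediator Dpysl2 (-0.10 ± 0.25). Tubb2b, a beta-tubulin of young neurons, differed by -0.16 on its brightest probe, near the top of the scale, but by -1.95 to -1.20 on 4 other probes, so its level relative to the precursors depends on the probe. On that brightest probe it was 1.88 above OMP (adjusted p = 1.06e-05).

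Whether removal of the bulb acted alike in the 2 sorts was tested as the difference between the lesion effect in OMP cells and that in Neurog1 cells, which was called for 235 genes (1.98%), 151 of them positive (1.27%) and 84 negative (0.708%). Among the 27 growth cone genes 7 were called, all positive; in 6 of them the lesion effect was called higher in OMP cells, and in the seventh, the neuritin gene Nrn1, the effects were 0.32 in OMP cells and -1.57 in Neurog1 cells. Gap43 rose by 3.38 with the lesion in OMP cells against a difference of 0.34 in Neurog1 cells, and the 2 effects differed by 3.05 ± 0.57 (adjusted p = 0.00945).

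The transcription factors and signalling genes of immediate neuronal precursors were mostly low in lesioned OMP cells. Of 18 listed genes 14 were measured, and 10 (71.4%) were called lower in OMP-OBX, 1 was higher and 3 were uncalled, with a median difference of -1.59; 7 were lower with the noise class term. Mfng, a glycosyltransferase that modifies Notch, read 5.60, 6.67 and 6.31 in OMP-OBX and 10.48, 10.40 and 10.20 in Neurog1-Ctrl. This was 18-fold lower (log2 difference -4.17 ± 0.57, adjusted p = 3.68e-05), with the groups far apart. Neurod1, the basic helix-loop-helix factor downstream of Neurog1, was undetected on all OMP-OBX arrays (4.50, 4.76 and 4.76) and read 6.99, 6.76 and 6.79 in Neurog1-Ctrl, at least 2.16-fold lower in OMP-OBX. Hes6, a neurogenic member of the Hes family, fell by 2.31 ± 0.34 (adjusted p = 7.05e-05), and Tead2, a DNA-binding partner of YAP, fell by 2.47 ± 0.46, a call lost with the noise class term. For Mfng, Hes6 and Tead2 the difference of OMP-OBX from OMP was between 0.07 and 0.60 and uncalled.

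A few precursor factors were raised by comparison with OMP. Sox11, a SoxC factor of newborn neurons, read 12.64, 12.61 and 12.32 in OMP-OBX against 14.41, 14.51 and 14.41 in Neurog1-Ctrl (difference -1.92 ± 0.35, adjusted p = 0.000475). It was 1.5 above OMP, a call lost without OMP replicate 1. Cdkn1c, the cell cycle exit inhibitor p57, read 10.05, 9.38 and 9.39 in OMP-OBX against 11.12, 11.29 and 11.35 in Neurog1-Ctrl, so that it fell by 1.65 ± 0.24 and was 1.59 above OMP. Insm1, a zinc-finger factor of the transition from progenitor to neuron, differed by -0.94 from Neurog1-Ctrl and was uncalled (adjusted p = 0.0924), and was 2.09 above OMP (adjusted p = 0.00194). Sox4, the other SoxC factor, was the exception in direction on its brightest probe, with 9.76, 10.04 and 10.23 in OMP-OBX and 8.99, 9.26 and 8.88 in Neurog1-Ctrl. That probe was higher by 0.97 ± 0.25 (adjusted p = 0.00802), its second probe differed by -0.29, and the call was lost under median scaling, with the mean of its probes and with the noise class term. Ebf3, a factor common to precursors and mature neurons, differed by -0.16 with an interval inside 2-fold.

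Genes of mitosis and replication were often lower in the lesioned OMP sort, and regulators of globose basal cells and progenitors were mixed. Of 9 measured regulators 3 (33.3%) were lower, 1 higher and 5 uncalled, beside 13.7% lower and 12.7% higher over all genes tested. Their median was -0.25, or 0.07 under cyclic loess. The receptor gene Notch1 fell by 1.77 ± 0.40, and the Polycomb genes Cbx2 and Ezh2 differed by -1.32 ± 0.26 and -1.52 ± 0.45. All 3 calls were lost with the noise class term, and that of Ezh2 also in the fits without OMP-OBX replicate 2 or 3 or Neurog1-Ctrl replicate 2 or 3. Sox9, a factor of glands and supporting cells as well as progenitors, was the 1 member called higher (1.16 ± 0.29), lost under median scaling and with the noise class term. For G2 and mitosis (13 measured genes), 12 (92.3%) were lower and none higher, with a median of -2.13; 4 were lower with the noise class term. Of 18 measured genes of DNA replication and G1/S 9 (50%) were lower and none higher, with a median of -0.93; 3 were lower with the noise class term. Against OMP no member of either list was called.

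The mitotic kinase gene Cdk1 read 4.96, 5.44 and 5.33 in OMP-OBX, undetected on each array, and 8.26, 8.30 and 7.42 in Neurog1-Ctrl, at least 4.78-fold lower in OMP-OBX (adjusted p = 0.000475). Cdc20, the activator of the anaphase-promoting complex, read 5.79, 7.31 and 6.66 in OMP-OBX against 9.48, 9.18 and 8.53 in Neurog1-Ctrl, and fell by 2.48 ± 0.51 (adjusted p = 0.00158). The spindle motor gene Kif11 read 5.35, 5.36 and 5.47 in OMP-OBX, again undetected, against 7.04, 7.30 and 6.52 in Neurog1-Ctrl, at least 2.33-fold lower. For all 3 genes every OMP-OBX array lay below every Neurog1-Ctrl array, and each call was lost with the noise class term. Top2a, the topoisomerase of dividing cells, fell by 2.89 ± 0.56 on its brightest probe and differed by -0.35 on its other probe. Nusap1 and Birc5, a spindle protein and the chromosomal passenger survivin, differed by -2.90 and -2.79. Among replication genes Mcm2 fell by 2.77 ± 0.34 and Mcm5 fell by 1.70 ± 0.38, both subunits of the replicative helicase, while the subunit Mcm4 differed by -0.37 (adjusted p = 0.218). The Mcm5 call was lost with the noise class term.

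The promoters of these genes are shown because promoters of mitotic and replication genes are known to carry cell cycle elements. The cell cycle genes homology region, TTTGAA on either strand, was found in the 250 bases before the start in 4 of the 11 measured G2/M genes with a RefSeq promoter (36.4%), against 11.6% of the 9628 tested genes with one and 16.3% of all 27025 promoters. It is in capitals below, as TTCAAA where it lies on the opposite strand, in the last 100 bases before the start, 5′ to 3′ on the gene's strand (RefSeq, GRCm38.p6). The windows are chr10:69352913-69353012 on the minus strand for Cdk1, chr4:118437344-118437443 on the minus strand for Cdc20, chr19:37376282-37376381 on the plus strand for Kif11 and chr11:99024190-99024289 on the minus strand for Top2a.
Cdk1: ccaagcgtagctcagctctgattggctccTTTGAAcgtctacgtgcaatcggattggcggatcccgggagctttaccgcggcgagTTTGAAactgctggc
Cdc20: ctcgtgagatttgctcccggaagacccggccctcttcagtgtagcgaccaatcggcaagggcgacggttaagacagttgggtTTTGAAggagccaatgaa
Kif11: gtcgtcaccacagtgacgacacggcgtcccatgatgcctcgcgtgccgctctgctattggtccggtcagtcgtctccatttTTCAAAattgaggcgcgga
Top2a: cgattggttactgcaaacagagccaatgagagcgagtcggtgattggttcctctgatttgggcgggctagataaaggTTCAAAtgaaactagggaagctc

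In all 4 promoters the match nearest the start began 15 to 23 bases before it. The E2F-type sequence TTTCGCGC, on either strand and counted separately from TTTGAA, lay in the same 250 bases of Mcm5 and Mcm6 among 14 replication genes with a promoter (14.3%), against 0.509% of tested genes and 0.255% of all promoters. Mcm5 was called lower and Mcm6 was uncalled. In Mcm5 (chr8:75109310-75109409, plus strand, from 199 to 100 bases before the start) the sequence is in capitals here.
Mcm5: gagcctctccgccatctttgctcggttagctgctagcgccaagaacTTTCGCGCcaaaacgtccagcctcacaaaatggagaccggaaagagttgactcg

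These matches describe the sequences and are not measured binding sites, and the motifs were chosen after a first look at their matches.

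Cytoplasmic ribosomal protein genes were also lower in lesioned OMP cells. Of 51 measured genes 30 (58.8%) were lower and none higher, with a median of -0.73, and 14 were lower with the noise class term. Rps19, of the small subunit, read 12.79, 12.79 and 12.82 in OMP-OBX against 14.19, 14.30 and 14.09 in Neurog1-Ctrl, and fell by 1.39 ± 0.19 (adjusted p = 2.86e-05). Rps6, the small-subunit target of S6 kinase, read 11.61, 11.63 and 11.61 in OMP-OBX against 12.99, 12.98 and 13.09 in Neurog1-Ctrl, and fell by 1.40 ± 0.22. In both genes the arrays of each group lay close together and the groups were well apart. Against OMP, 3 ribosomal protein genes were higher in OMP-OBX and none lower, with a median of 0.29. Over all genes tested 4.24% were higher and 4.43% lower against OMP. Oxidative phosphorylation showed no such shift from Neurog1-Ctrl, with a median of 0.08 that became -0.20 under median scaling. Of 80 measured genes 4 (5%) were higher and 6 (7.5%) lower, beside 12.7% and 13.7% over all genes. The interval lay inside 2-fold for 53 (66.2%), beside 54.5% over all genes.

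**Figure D2:**
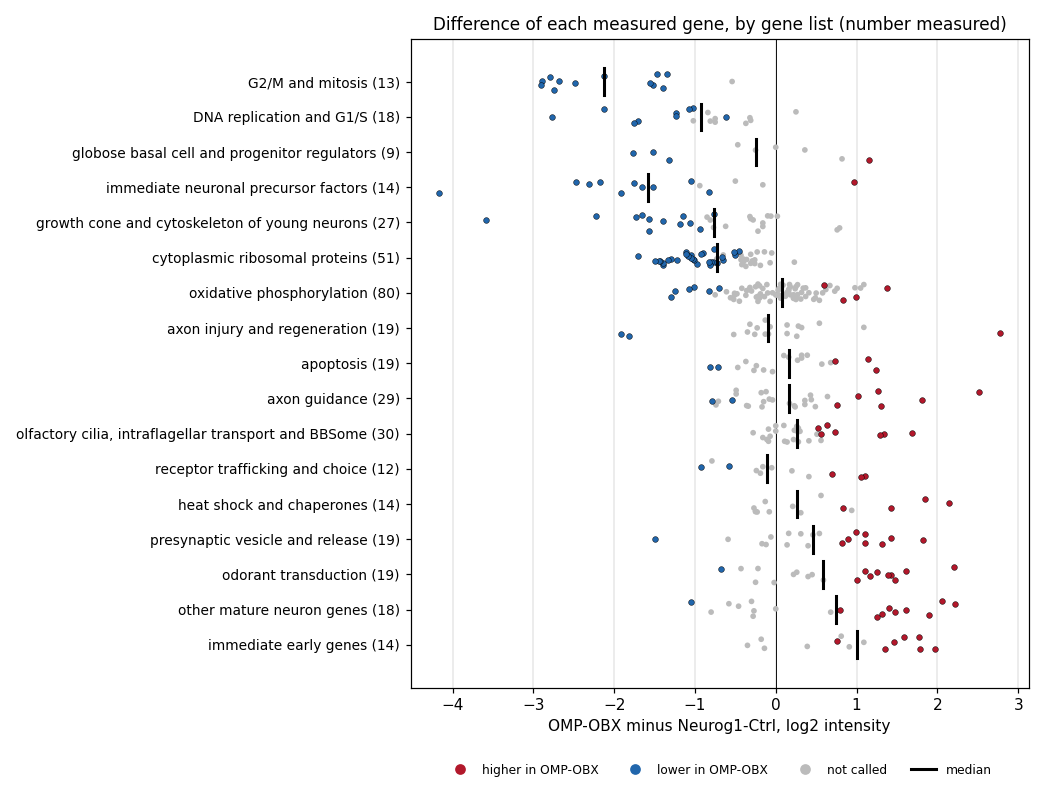
Difference of each measured gene between OMP-OBX and Neurog1-Ctrl (log2 intensity, horizontal axis), one gene list per row. Points are genes, with calls coloured by direction and uncalled genes in grey, and the bar is the median of the list. Cell cycle, precursor and ribosomal lists hold calls almost wholly on the lower side, from 50% to 92.3% of members, and the transduction, mature neuron and presynaptic lists on the higher side, from 42.1% to 50%.

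The machinery of odorant transduction was higher in lesioned OMP cells than in the normal Neurog1 sort. Of 23 listed genes 19 were measured, 9 (47.4%) were higher, 1 was lower and 9 were uncalled, with a median of 0.59. With the noise class term 7 were higher, and 5 were under median scaling. Cnga4, a modulatory subunit of the cyclic nucleotide-gated channel, read 12.73, 13.03 and 13.18 in OMP-OBX against 11.82, 9.32 and 11.16 in Neurog1-Ctrl. It was 2.21 ± 0.59 higher (adjusted p = 0.00992), but Neurog1-Ctrl replicate 2 stood far below the others and the call was lost without it, at 1.49. Ano2, the calcium-activated chloride channel of the cilia, read 12.69, 13.40 and 13.29 in OMP-OBX against 11.87, 11.64 and 11.69 in Neurog1-Ctrl, 1.39 ± 0.20 higher (adjusted p = 4.99e-05). Slc24a4, the sodium-calcium exchanger that ends the response, read 8.24, 8.56 and 8.34 in OMP-OBX against 6.86, 6.22 and 7.23 in Neurog1-Ctrl, 1.61 ± 0.37 higher. Neither gene had overlapping groups.

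Adcy3, the ciliary adenylyl cyclase, and Cngb1, the beta subunit of the channel, were 1.11 ± 0.27 and 1.25 ± 0.22 higher than in Neurog1-Ctrl on their brightest probes, and -0.30 and -0.25 on their second probes. Both calls were lost under median scaling, and that of Adcy3 with the mean of its probes. Against OMP both were lower, with differences of -1.27 for Adcy3 (adjusted p = 0.0052) and -0.83 for Cngb1 (adjusted p = 0.0223), the second of these lost without OMP-OBX replicate 1 or 3 or OMP replicate 1 or 3. The phosphodiesterase genes Pde4a and Pde1c were 1.48 and 1.17 higher than in Neurog1-Ctrl, the kinase gene Camk2a 1.42 higher, and Ric8b, an exchange factor for the olfactory G protein, 1.0 higher. The Pde1c and Ric8b calls were lost under median scaling and with the noise class term. Cnga2, the principal channel subunit, differed by 0.40 ± 0.22 (adjusted p = 0.194). Gng13, the gamma subunit of mature neurons, read 15.36, 15.32 and 15.34 in OMP-OBX and 15.22, 14.94 and 15.07 in Neurog1-Ctrl, a difference of 0.26 with an interval inside 2-fold. Slc12a2, the chloride loader NKCC1, likewise differed by 0.22. The 1 gene called lower, the phosphodiesterase gene Pde2a of a specialised receptor-cell subset, fell by 0.68, a call lost in every fit that left out 1 OMP-OBX array or Neurog1-Ctrl replicate 1 or 2.

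The promoters of transduction genes are printed for the core CCCNNGGG bound by the Olf/EBF factors, which reads the same on both strands. It occurred in the 250 bases before the start in 4 of 14 measured transduction genes with a promoter (28.6%), namely Slc24a4, Cngb1, Cnga2 and Gng13, against 15.1% of tested genes and 11.7% of all promoters. Of these 4, 2 were called higher and 2 were not. The share was 30% (3 of 10) in the list of precursor factors, most of which were lower, and 20.0% (2 of 10) among immediate early genes. Below, the match is in capitals, and in Gng13 the capitals hold 2 overlapping matches. The windows (RefSeq, GRCm38.p6, plus strand) are chr12:102128572-102128671 for Slc24a4, chrX:71991749-71991848 for Cnga2 and chr17:25717072-25717171 for Gng13.
Slc24a4: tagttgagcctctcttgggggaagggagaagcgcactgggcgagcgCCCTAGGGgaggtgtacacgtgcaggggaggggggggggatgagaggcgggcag
Cnga2: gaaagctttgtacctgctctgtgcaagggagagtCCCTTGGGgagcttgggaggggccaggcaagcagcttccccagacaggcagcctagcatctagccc
Gng13: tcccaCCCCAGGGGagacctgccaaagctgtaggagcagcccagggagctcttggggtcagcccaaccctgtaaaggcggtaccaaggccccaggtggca

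**Figure D3:**
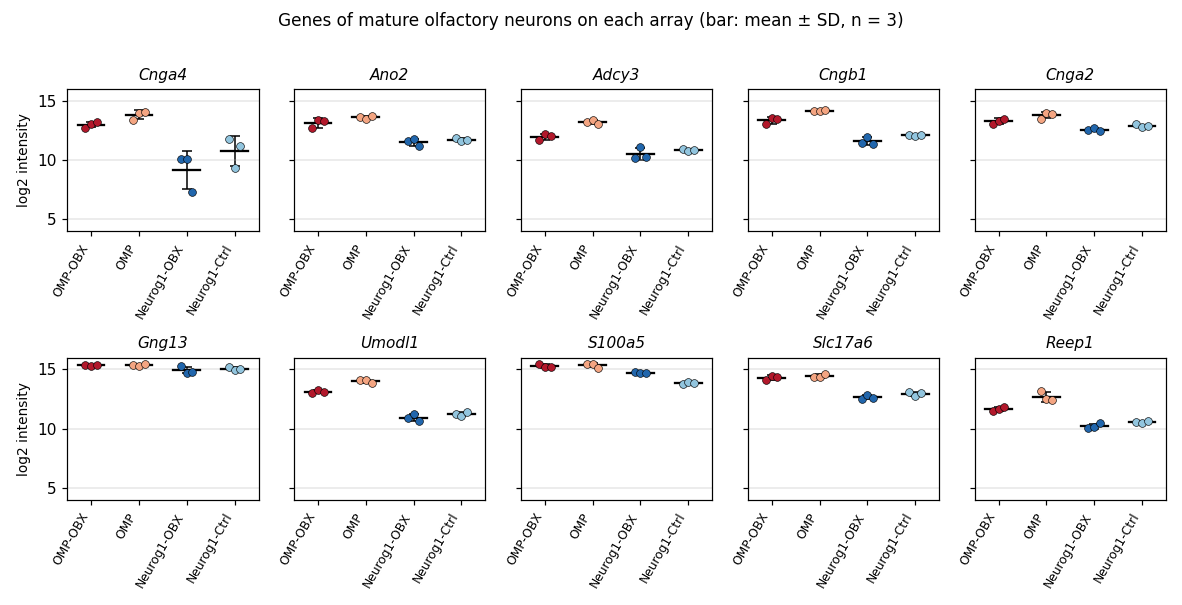
Log2 intensity of mature olfactory neuron genes on each array, with OMP-OBX left of OMP and Neurog1-OBX left of Neurog1-Ctrl; points are arrays, the bar is the mean and the whiskers the SD (n = 3). Umodl1 and Adcy3 in OMP-OBX lie between the Neurog1-Ctrl and OMP arrays, and S100a5 (15.18 to 15.44) lies at the OMP level.

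Receptor trafficking and choice showed little shift as a list: of 12 measured genes 3 (25%) were higher and 2 (16.7%) lower, with a median of -0.11. Over all genes tested 12.7% were higher and 13.7% lower. Reep1, an olfactory receptor accessory protein, was 1.10 ± 0.20 higher than in Neurog1-Ctrl (adjusted p = 0.000454) and fell by 1.03 against OMP (adjusted p = 0.00192). Adipor1, the adiponectin receptor of mature neurons, was 1.06 ± 0.18 higher than in Neurog1-Ctrl and fell by 0.78 against OMP, the first call lost under median scaling and the second without OMP-OBX replicate 1. Ldb1, the cofactor of Lhx2 at receptor enhancers, fell by 0.92 ± 0.20, a call lost with the noise class term. Rtp1, the chaperone of receptors, differed by 0.20 with an interval inside 2-fold. Rtp2, its paralog, was called higher by 0.69, and Kdm1a, the histone demethylase of receptor choice, fell by 0.58. Each of those 2 calls was lost in 5 of 6 fits without 1 array, the exceptions being the fit without OMP-OBX replicate 3 for Rtp2 and without Neurog1-Ctrl replicate 3 for Kdm1a.

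Of 18 other measured genes of mature neurons 9 (50%) were higher and 1 was lower, with a median of 0.74, and 9 were higher with the noise class term as well. S100a5, a calcium-binding protein of active mature neurons, read 15.44, 15.22 and 15.18 in OMP-OBX, near the top of the scale, against 13.80, 13.94 and 13.90 in Neurog1-Ctrl, 1.40 ± 0.15 higher (adjusted p = 2.14e-06). Umodl1, the olfactorin gene of mature neurons, read 13.05, 13.29 and 13.07 in OMP-OBX against 11.26, 11.09 and 11.39 in Neurog1-Ctrl, 1.90 ± 0.31 higher. Both genes separated the groups fully. Cidea, Sema7a and Pcp4l1 were 2.22, 2.06 and 1.61 higher, and the vesicular glutamate transporter gene Slc17a6 was 1.32 higher, a call lost under median scaling. Rbfox3, the NeuN gene, was undetected in OMP-OBX and at least 1.23-fold lower than in Neurog1-Ctrl.

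The presynaptic list followed: 8 of 19 measured genes (42.1%) were higher and 1 lower, with a median of 0.46, though 3 were higher under median scaling. The synaptic vesicle genes Syngr1, Sv2b and Sv2a were 1.82, 1.43 and 1.11 higher. Syp, synaptophysin, was 1.11 higher and Syt1, the calcium sensor of release, 0.99 higher, both lost under median scaling and Syp also with the noise class term. Unc13a, the priming factor, fell by 1.49 ± 0.37, a call lost without OMP-OBX replicate 2. Cilium, intraflagellar transport and BBSome genes mostly lay within 2-fold of the Neurog1-Ctrl level (24 of 30, or 80%, beside 54.5% of all genes tested). Of the 30, 7 (23.3%) were called higher and none lower, beside 12.7% and 13.7% over all genes. The number called higher was 3 without OMP-OBX replicate 2 or 3 or Neurog1-Ctrl replicate 1 or 3. It was 4 without Neurog1-Ctrl replicate 2, and 3 under median scaling. Kif17, the kinesin of olfactory cilia, was at least 2.23-fold higher, and Rpgrip1l, of the transition zone, was 1.34 ± 0.20 higher (adjusted p = 8.82e-05).

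Of 29 measured axon guidance genes 6 (20.7%) were higher and 2 (6.9%) lower, beside 12.7% and 13.7% over all genes tested, with a median of 0.17 that became -0.11 under median scaling. Epha5, an ephrin-A receptor of olfactory axons, read 10.12, 11.06 and 10.43 in OMP-OBX against 8.49, 7.27 and 8.31 in Neurog1-Ctrl, 2.52 ± 0.32 higher (adjusted p = 1.87e-05). The groups did not overlap, and its 2 other probes differed by 2.03 to 2.77. The related receptor gene Epha7 was 1.81 higher, the netrin receptor gene Unc5b 1.30 higher and the semaphorin receptor gene Plxna3 at least 1.56-fold higher, the Unc5b and Plxna3 calls being lost with the noise class term. Nrp1, the semaphorin co-receptor that patterns the bulb map, read 11.25, 11.28 and 11.32 in OMP-OBX and 12.13, 12.09 and 12.00 in Neurog1-Ctrl, and fell by 0.79 ± 0.22 (adjusted p = 0.0119), a call lost with that term and with the mean of its probes. The remaining lower gene, Plxnb2, a semaphorin receptor, fell by 0.54, a call lost without OMP-OBX replicate 2 or 3 or Neurog1-Ctrl replicate 2.

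Odorant receptors, of which each mature neuron expresses a single gene, were called in both directions against the normal Neurog1 sort. Of 1071 receptor genes on the array 580 passed the detection filter, and 99 (17.1%) were higher in OMP-OBX, 118 (20.3%) lower and 363 uncalled, beside 12.7% higher and 13.7% lower over all genes tested. Their median difference was -0.13. Without Neurog1-Ctrl replicate 2 the number higher was 58, and it was 59 with the noise class term. The number detected on all 3 arrays was 258 in OMP-OBX and 304 in Neurog1-Ctrl, beside 470 in OMP. The summed level of the 580 receptors ran the other way between the first 2 groups. It was 114397 to 121567 intensity units in OMP-OBX, 64353 to 81410 in Neurog1-Ctrl and 119154 to 176547 in OMP. Against OMP, 19 receptors were higher in OMP-OBX and 241 lower. The detection filter bears on this count, since 3 or more detected arrays of any mucosal group let a receptor in. Of the 580, 17 were undetected on all OMP arrays, against 172 in OMP-OBX and 157 in Neurog1-Ctrl. Receptors detected in OMP alone could thus enter, which favours lower values against OMP. OMP replicate 1, with the lowest array noise of the 4 groups used here, had 46.0% of its probes detected, and its part in the count for OMP was not tested.

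The receptor with the largest rise was Olfr136, on chromosome 17, which read 9.24, 9.57 and 9.06 in OMP-OBX and 6.24, 4.56 and 4.50 in Neurog1-Ctrl, 4.19 ± 0.49 higher (adjusted p = 6.29e-06). Olfr726, on chromosome 14, read 12.90, 13.44 and 13.27 in OMP-OBX against 10.21, 9.89 and 10.07 in Neurog1-Ctrl, 3.15 ± 0.38 higher. The differences of these 2 receptors from OMP were -0.07 and 1.22 and uncalled. At the other end, Olfr1537, on chromosome 9, was undetected on all OMP-OBX arrays (4.91, 4.86 and 5.09) and read 9.20, 8.27 and 8.82 in Neurog1-Ctrl, at least 8.17-fold lower (adjusted p = 5.7e-07). Olfr855, on chromosome 9, was at least 5.7-fold lower, and Olfr115 and Olfr99, on chromosome 17, at least 5.4-fold and 4.55-fold lower. These bounds hold for the brightest probe. The other probes of Olfr855 and Olfr99 differed by less, -1.5 and -0.69. On the brightest probes all 4 receptors were undetected on the OMP-OBX arrays and called lower there than in OMP too. In OMP, Olfr1537 read 7.98, 8.23 and 8.99.

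Counts by location are given as a description, and no difference between locations was tested. On chromosome 9, 0 of 51 measured receptors were higher and 20 lower, with a median of -0.42. On chromosome 14, 10 of 29 were higher and 0 lower, with a median of 0.68, among them Olfr1507 (3.64 higher) and Olfr741 (2.89 higher). Chromosome 2, with 162 measured receptors, had 42 higher and 25 lower, and chromosome 17, with 29, had 7 higher and 9 lower over a range of -3.06 to 4.19. Of 58 measured receptors numbered Olfr543 to Olfr692, the range that holds the fish-like class I receptors, 0 were higher and 18 lower, with a median of -0.58, and 41 of them were lower than in OMP. The chromosome and number groups were chosen after the receptor values were seen, and receptors of 1 cluster share sequence, so a probe may read more than its own gene. Trace amine receptors gave little against Neurog1-Ctrl, where 1 of 11 measured genes, Taar7f, was called lower, a call lost in 4 of 6 fits without 1 array (OMP-OBX replicate 1, 2 or 3, or Neurog1-Ctrl replicate 3). Against OMP 8 of the 11 were lower, though 6 of the 11 were undetected in both OMP-OBX and Neurog1-Ctrl. The limit of the detection filter given above holds for the counts against OMP in this paragraph.

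**Figure D4:**
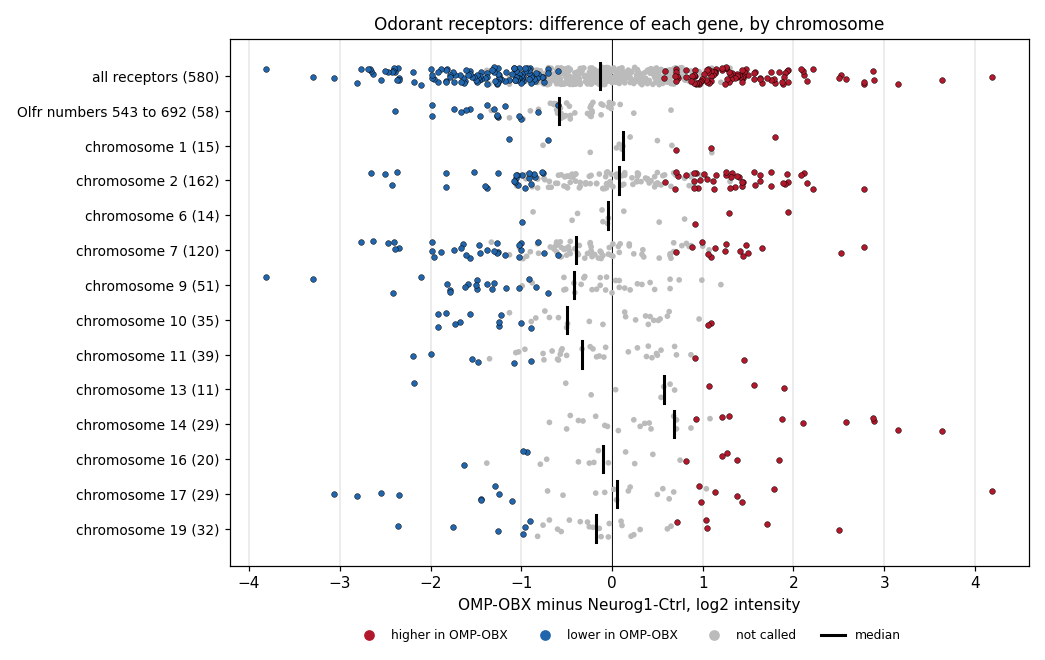
Differences of the 580 measured odorant receptors between OMP-OBX and Neurog1-Ctrl (log2), set out by receptor group. Chromosome 9 receptors hold calls on the lower side (20 of 51) and chromosome 14 receptors on the higher side (10 of 29).

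Immediate early genes, which follow neuronal activity and stress, were higher in lesioned OMP cells. Of 14 measured genes 7 (50%) were higher and none lower, with a median of 1, and 3 were higher with the noise class term. Fos read 11.19, 11.16 and 11.31 in OMP-OBX and 8.77, 9.05 and 9.93 in Neurog1-Ctrl, 1.97 ± 0.39 higher (adjusted p = 0.000982). Junb read 8.41, 8.45 and 8.47 in OMP-OBX and 7, 7.2 and 7.08 in Neurog1-Ctrl, 1.35 ± 0.23 higher (adjusted p = 0.000275). The groups did not overlap in either gene, and the OMP-OBX arrays lay closer together than the Neurog1-Ctrl arrays. The zinc-finger factors Egr1 and Egr3 were 1.46 higher and at least 1.65-fold higher, and the RNA-binding Zfp36 1.77 higher. The Fos and Egr1 calls were lost with the noise class term, and that of Egr3 with the authors' processed values. Against OMP the only call among the 14 was Jun, 1.01 higher (adjusted p = 0.00739) and lost without OMP replicate 1. The difference of Jun from Neurog1-Ctrl was -0.35 and uncalled. Within the Neurog1 line the lesion itself went with higher Fos (2.24), Egr1 (2.08), Zfp36 (1.92) and Junb (1.97). The Junb call held whichever array was left out. The Fos call was lost without Neurog1-Ctrl replicate 1 or 2 or Neurog1-OBX replicate 3, and the Egr1 and Zfp36 calls without Neurog1-Ctrl replicate 1 or Neurog1-OBX replicate 1 or 3.

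**Figure D5:**
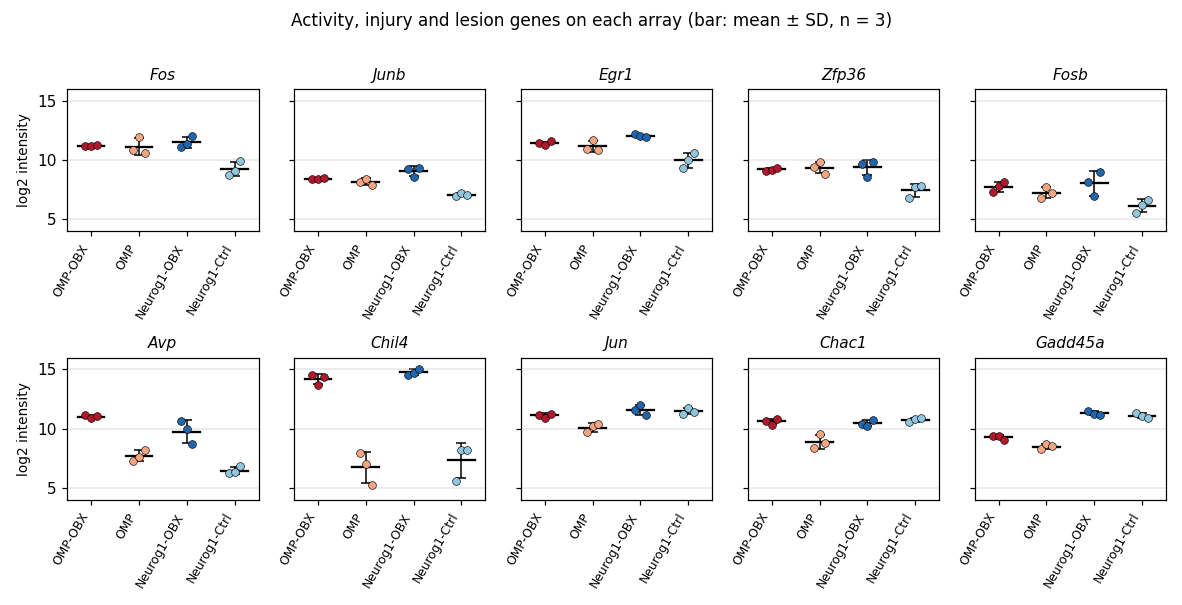
Log2 intensity of immediate early, injury and lesion genes on each array, with OMP-OBX left of OMP and Neurog1-OBX left of Neurog1-Ctrl; points are arrays, the bar is the mean and the whiskers the SD (n = 3). Avp and Chil4 are high in both operated groups, and Junb in Neurog1-Ctrl (7 to 7.2) lies below the OMP-OBX arrays.

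Of 19 measured genes of axon injury and regeneration 1 (5.26%) was higher and 2 (10.5%) lower, beside 12.7% and 13.7% over all genes tested. Against OMP 4 were higher and none lower, beside 4.24% and 4.43% over all genes. The LIM protein gene Csrp1 was at least 3.51-fold higher. Sox11, given above, was lower, as was Gadd45a, a stress-response gene, which read 9.41, 9.37 and 9.09 in OMP-OBX against 11.31, 11.06 and 10.95 in Neurog1-Ctrl (difference -1.82 ± 0.21, adjusted p = 5.72e-06). Gadd45a was 0.79 ± 0.21 above OMP, a call lost without OMP-OBX replicate 1 or 2 or OMP replicate 1. Chac1, a glutathione-degrading target of the unfolded protein response, differed by -0.13 from Neurog1-Ctrl and was 1.70 above OMP (adjusted p = 0.000252). Of 19 measured apoptosis genes 3 (15.8%) were higher and 2 (10.5%) lower, near the shares over all genes. Their median was 0.16 and turned negative under median scaling. Bcl2l11, the death-promoting gene Bim, read 9.47, 9.59 and 9.64 in OMP-OBX and 8.45, 8.30 and 8.23 in Neurog1-Ctrl, 1.24 ± 0.16 higher (adjusted p = 2.28e-05), and its difference from OMP was 0.36 and uncalled. Bcl2l2, a survival gene, was 1.14 higher, a call lost under median scaling and with the noise class term. Apaf1, the scaffold of the apoptosome, was 0.73 ± 0.18 higher than in Neurog1-Ctrl and 0.92 higher than in OMP (adjusted p = 0.00258), the first call lost under median scaling. The pro-survival gene Bcl2 fell by 0.81, a call lost without OMP-OBX replicate 1 or Neurog1-Ctrl replicate 1 or 3, and the caspase gene Casp2 fell by 0.72, lost without OMP-OBX replicate 1 or 2 or Neurog1-Ctrl replicate 2. Of 14 measured heat shock and chaperone genes 4 (28.6%) were higher and none lower, beside 12.7% and 13.7% over all genes. The 4 became 2 without OMP-OBX replicate 2 or 3 or Neurog1-Ctrl replicate 1 or 2. The chaperone gene Hspa4l was 2.14 ± 0.40 higher and the cochaperone gene Bag3 1.43 ± 0.27 higher, the Bag3 call being lost with the noise class term.

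Of the 15 largest rises over all genes, 3 were also called higher in OMP-OBX than in OMP. Chil4, a chitinase-like protein of inflamed epithelium, read 14.51, 13.72 and 14.39 in OMP-OBX against 5.64, 8.19 and 8.20 in Neurog1-Ctrl, 6.86 ± 1.19 higher (adjusted p = 0.000337), and 7.46 higher than in OMP. Its relative Chil3 was at least 9.86-fold higher than in Neurog1-Ctrl on its brightest probe, with differences of 2.02 and 2.06 on other probes. On the brightest probe Chil3 was called higher than in OMP, where it was undetected on all 3 arrays. Neurog1-OBX exceeded Neurog1-Ctrl by 7.42 for Chil4 and was called higher for Chil3 as well, the Chil4 call being lost without Neurog1-Ctrl replicate 1. Avp, the vasopressin gene, read 11.17, 10.88 and 11.06 in OMP-OBX against 6.25, 6.36 and 6.83 in Neurog1-Ctrl, 4.56 ± 0.59 higher (adjusted p = 2.06e-05) and 3.32 higher than in OMP. The other 12 of the 15 largest rises differed from OMP by -0.32 to 0.90 and were uncalled there, though Aph1b, a subunit of gamma-secretase, was called higher in Neurog1-OBX than in Neurog1-Ctrl, a call lost without Neurog1-Ctrl replicate 1 or 3 or Neurog1-OBX replicate 1 or 2. The largest of the 12 was Cfap69, a ciliary protein of mature olfactory neurons, which read 12.18, 12.20 and 12.10 in OMP-OBX and 5.37, 5.78 and 5.46 in Neurog1-Ctrl, undetected on each of these, at least 76.9-fold higher (adjusted p = 7.69e-12). The other Cfap69 probe differed by less, 4.93.

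The 15 largest falls were all uncalled against OMP, with differences of -0.43 to 1.13. Besides Mfng and Cxcr4 they included Grp, the gastrin-releasing peptide gene, which read 5.31, 6.19 and 5.77 in OMP-OBX against 10.31, 10.02 and 10.01 in Neurog1-Ctrl (difference -4.35 ± 0.35, adjusted p = 1.24e-07). The collagen gene Col9a2 differed by -4.06, the retinoic acid binding protein gene Crabp1 by -3.35 and the secretogranin gene Scg2 by -3.18, and the chemokine gene Cxcl14 was at least 6.41-fold lower. Gdpd3, a phosphodiesterase of lipid metabolism, fell by 4.86. The agouti coat colour gene, a, was at least 13.6-fold lower on its brightest probe and differed by -1.98 on its other probe. For the last of these in particular the parental strains of the 2 lines differ, and line and cell type cannot be told apart.

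Markers of other cells that a sort could hold were compared in the same way. Of 12 measured markers of Bowman glands and secretory cells 5 (41.7%) were higher in OMP-OBX and none lower, led by the secreted Dcpp2 and Dcpp3, at least 7.36-fold and 5.31-fold higher. Their summed level was 46064 to 65159 intensity units in OMP-OBX, 14866 to 36718 in Neurog1-Ctrl and 23301 to 62626 in OMP. Of 11 markers of horizontal basal cells 4 were higher and none lower, among them the keratins Krt5 (1.33) and Krt14 (1.29), with sums of 1527 to 2638 in OMP-OBX and 913 to 1438 in Neurog1-Ctrl. None of the 4 was called without OMP-OBX replicate 3 or without Neurog1-Ctrl replicate 3, 1 was called without OMP-OBX replicate 2, and 2 were called without Neurog1-Ctrl replicate 1. Of 16 sustentacular markers 1 was higher and none lower, with overlapping sums of 51131 to 77672 in OMP-OBX and 44568 to 76272 in Neurog1-Ctrl. Of 15 myeloid markers 1 was higher, with sums of 2827 to 3689 in OMP-OBX and 1375 to 2657 in Neurog1-Ctrl, and 7 were undetected in both groups. Stromal and vascular markers had 2 of 12 higher, microvillar and brush cell markers 1 of 10, respiratory ciliated cell markers 3 of 10 with 1 lower, lymphoid markers 0 of 3 with 1 lower, and ensheathing glia (5 measured) and red blood cells (4 measured) none in either direction. Over all genes tested 12.7% were higher and 13.7% lower, and the stromal (16.7%) and microvillar (10%) shares higher lie near that. The part of gland, basal and myeloid cells in the differences above was not tested.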

How the data were processed

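RNA of GFP-sorted cells of the olfactory mucosa was measured on Illumina bead arrays, 3 per group. The deposited tables hold, per probe and array, a background-subtracted intensity, not normalized between arrays, and a detection p-value, both per the file headers and the values, with GenomeStudio named in the submitters' processing notes. The authors' processed intensity values (minimum 74.9, every array's median 121, with the normalization not given in the sources used here) served as an alternative. In R 4.3.3 with limma 3.58.1, intensities were background-corrected by normexp from detection p-values (offset 16), quantile normalized over the 21 mucosal arrays and put on the log2 scale. Of 45281 probes, 34885 had 1 gene, 18 several and 10378 none. A probe stayed in when its detection p was below 0.01 on 3 or more arrays (21711 probes), and the brightest per gene gave 11870 genes. A linear model over all 7 mucosal groups (14 residual degrees of freedom) with eBayes gave differences and standard errors, and p-values were Benjamini-Hochberg adjusted over all genes. Where a gene was undetected on every array of the lower group, the fold is a lower bound for its brightest probe. The bound is taken against the arrays' lowest signal among detected probes. A noise class groups arrays by the spread of the negative controls.

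Named genes are Omp, Neurog1 and the markers Gap43, Stmn3 and Cxcr4, the 15 largest non-overlapping rises and falls over all genes other than receptors and clones, the 4 largest rises and falls of receptors, all members of lists of up to 12, and of longer lists up to 10 called members by size and 6 uncalled by level; exceptions are named where they occur. The members and the 29 lists were chosen with earlier results of these data known. Tested on simulated data of this design, the model recovered 10%, 54%, 90% and 100% of genes changed by 0.5, 1, 2 and 3 log2 units. In that simulation 50 of the 11870 genes were changed at each size, and 8 of its 135 calls were false. Far more genes were called in the data, where the adjusted p is then less strict, so these rates do not carry over directly. The number of arrays limits the precision. Alternatives were background correction, normalization, probe filter, probe summary, samples in the fit, array weights, replicate block, noise class and leaving out each array. Promoters came from RefSeq tables (GRCm38.p6). No array was left out of the mucosal fit; the 3 arrays of the eighth group were not used here. Figures were drawn with Python 3.11.15 and matplotlib 3.10.9.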

Additional observations from a re-analysis of the deposited data

Results flagged for a closer look

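In the results of this section the effect of bulb removal differed between the 2 sorts, tested as the lesion effect in OMP cells (OMP-OBX against OMP) minus that in Neurog1 cells (Neurog1-OBX against Neurog1-Ctrl) in limma, with p adjusted over all genes. Both lesion effects are log2 differences. Among genes of young neurons, Gap43 differed by 3.05 (3.38 in OMP cells and 0.34 in Neurog1 cells, adjusted p = 0.00945) and Stmn1 by 2.94 (3.37 and 0.43, adjusted p = 0.0324). The G-protein subunit gene Gng8 differed by 2.61 (2.49 and -0.11, adjusted p = 0.024), Marcksl1 by 2.08 (2.12 and 0.04, adjusted p = 0.00937), Tubb2b by 1.88 (1.88 and 0.01, adjusted p = 0.00408) and Marcks by 1.49 (1.55 and 0.06, adjusted p = 0.00887). Cdkn1c, the p57 gene of cell cycle exit, differed by 1.37 (1.59 and 0.22, adjusted p = 0.0455). All 7 were higher in operated OMP cells and uncalled in operated Neurog1 cells. Nrn1, the seventh growth cone gene called, differed by 1.89 (0.32 and -1.57, adjusted p = 0.021), and was lower in operated Neurog1 cells. The Tubb2b probe lay near the top of the scale in both Neurog1 groups, so a rise there may not show.

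Of 14 measured immediate early genes 3 were called, all negative, while Jun differed by 0.90 ± 0.32 and was uncalled. Fos differed by -2.13 (0.11 in OMP cells and 2.24 in Neurog1 cells, adjusted p = 0.0485), Zfp36 by -2.07 (-0.14 and 1.92, adjusted p = 0.0337) and Junb by -1.69 (0.28 and 1.97, adjusted p = 0.00991). S100a5, a calcium-binding protein of mature neurons, differed by -0.91 (-0.07 and 0.84, adjusted p = 0.0289), but it lay near the top of the scale in both OMP groups, where a change may not show. Among stress and death genes Chac1 differed by 2.0 (1.70 and -0.29, adjusted p = 0.00887), Bcl2 by 1.77 (-0.38 and -2.15, adjusted p = 0.0133) and Apaf1 by 1.10 (0.92 and -0.17, adjusted p = 0.033). Bcl2 was thus lower in operated Neurog1 cells and uncalled in operated OMP cells.

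Of 580 measured odorant receptors 13 were called positive and 40 negative, and of 11 trace amine receptors 2 were called, both negative. The odorant receptor Olfr1537 differed by -2.18 (-3.44 in OMP cells and -1.26 in Neurog1 cells, adjusted p = 0.0264) and Olfr99 by -1.70 (-3.29 and -1.59, adjusted p = 0.00991). The trace amine receptors Taar7e and Taar7d differed by -1.62 (-1.93 and -0.31, adjusted p = 0.0416) and -1.55 (-1.75 and -0.20, adjusted p = 0.00457). All 4 were undetected on the OMP-OBX arrays, and the trace amine receptors also in both Neurog1 groups, so these differences are taken against background. The detection filter could admit receptors through OMP alone, which favours negative values here. The 2 sorts come from different mouse lines, so an effect of the line and an effect of the stage cannot be told apart in these differences.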

How the results depend on the processing

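The 3132 genes called between OMP-OBX and Neurog1-Ctrl became 5911 with array weights, 5031 with only the 2 compared groups in the fit and 1397 with noise class as a term, of which 1262 were among the 3132; leaving out 1 array gave 2161 to 2507. Against OMP the 1029 calls became 669 under median scaling and 658 to 982 when 1 array was left out. For Neurog1-OBX against Neurog1-Ctrl the 47 calls became 31 without background correction, 182 with only the 2 groups, 592 with array weights, 98 with noise class and 8 to 28 without 1 array, and 34.7% of calls were higher under median scaling against 48.9%. The cause was not tested. Replicate numbers did not pair the samples (correlations of deviations for the 3 numbers 0.02, 0.20 and 0.02), and with the replicate block 3108, 1017 and 33 genes were called. Direction turned for 3 called genes: Ndufb10 was 1.13 higher with the mean of its probes, and with noise class Ndufb4 differed by -0.04 and Rpl7a by 0.26.

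Of 184 called genes named or listed for naming, 136 stayed called whichever of the 6 arrays was left out. The other alternatives cost 0 to 38 of these calls, most under median scaling, except noise class, which cost 77 beside the 2 reversals. Under median scaling the medians of the apoptosis, axon guidance, cilia, oxidative phosphorylation, respiratory and sustentacular lists changed sign. Probes near the top of the scale (Omp, Tubb2b, Gng13, S100a5) compress differences, and probes undetected in a group give only bounds.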
